A study of Homo sapiens with 9 samples.

Results

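The tumour suppressor p53 is a transcription factor that is held at a low level by the ubiquitin ligase MDM2 and is freed when DNA is damaged or when ribosome assembly, nutrient supply or other conditions are disturbed. It then binds a paired decamer in the DNA and raises genes that stop the cell cycle, repair DNA, lower oxidative stress or start cell death. Among these are the 10 genes described here, which are CDKN1A, MDM2, GDF15, BBC3, BAX, FAS, TP53I3, ZMAT3, RRM2B and SESN1. They were chosen by name as direct p53 targets, and each was found once among the 63187 genes of the count table. All 10 were among the 16030 genes with enough counts to be tested.

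Their RNA was measured by poly(A)-selected RNA-seq in BEAS-2B, a human bronchial epithelial cell line that was immortalized with an adenovirus and SV40 hybrid virus. The large T antigen of SV40 is known to bind p53 and to restrain it, and every group carries it. Control cells were left untreated, PG/VG cells received the aerosol condensate of the carrier liquid of electronic cigarettes, propylene glycol and vegetable glycerin, and EC cells received the condensate of a tobacco-flavored liquid with 18 mg/mL nicotine. Both condensates were given at 2% (v/v) for 24 h. Each group has 3 libraries numbered 2, 3 and 4, and the labels use the number also as the batch, so that each batch holds 1 library of each group. The study describes the 3 libraries of a group as biological replicates. The labels do not say whether the batches are separate thawings or passages of the line, and p-values measure only the spread between these libraries.

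The libraries held 16168260 to 24917838 counts on genes, and the 3 control libraries were the smallest. Control cells had KRT8 at 1058 CPM (the count relative to the TMM-scaled total of its library), KRT7 at 860 and KRT18 at 546, whereas the epithelial markers EPCAM (1.20), CDH1 (0.684) and KRT5 (0.0188) were at or near 0. Of the other epithelial markers, KRT17 stood at 132 CPM, KRT19 at 17.6, CLDN4 at 0.925 and ESRP1 at 0.326. The mesenchymal genes VIM and FN1 stood at 1068 and 4791 CPM. Of the same list, CDH2 was at 331 CPM, COL1A1 at 75.6, PDGFRB at 47.1 and COL1A2 at 0. The label of an epithelial cell was thus met by its simple keratins and not by EPCAM or CDH1. Summed over 8 markers, leukocyte and endothelial genes gave 4.48 to 7.77 CPM in any library. The libraries of batch 4 stood apart from those of batches 2 and 3, with 40.6% of all tested genes differing between them, and the results are therefore also given without them.

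The p53 consensus consists of a pair of decamers, each with the core CNNG, where both N are A or T, between 3 purines and 3 pyrimidines. A search of 5000 bases to either side of the start of the main transcript (MANE Select, GRCh38) found such a pair without a spacer, with both cores intact and at most 2 mismatches elsewhere, near 5 of the 10 genes. Of 19061 windows of the same length around all such transcripts, 960 (5.04%) held one on either strand. The sites of 4 genes are shown 5′ to 3′ on the strand of the gene, with the core letters in capitals, because this element is what p53 binds.
CDKN1A, chr6:36676449-36676468, plus strand, 2256 bases upstream of the start: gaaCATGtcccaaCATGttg
GDF15, chr19:18385308-18385327, plus strand, 841 bases upstream: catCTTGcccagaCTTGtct
FAS, chr10:88991309-88991328, plus strand, 520 bases downstream in an intron: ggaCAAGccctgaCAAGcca
ZMAT3, chr3:179070188-179070207, minus strand, 1611 bases downstream in an intron: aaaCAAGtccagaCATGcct
The ZMAT3 site had no mismatch, which held for 27 windows (0.142%), and the other 3 had 2 mismatches each. RRM2B had a site with 1 mismatch in an intron 2111 bases downstream of its start. No pair that met these rules lay in the windows of MDM2, BBC3, BAX, TP53I3 and SESN1, and this says only that these letters were not found there. A match is a description of the sequence, and binding was not measured.

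Per kb of exon, the levels in control cells spanned from CDKN1A at 148 ± 76.6 CPM per kb (SD, n = 3) to FAS at 0.889 ± 0.428 CPM per kb. Between them, in falling order, were GDF15 at 104 ± 56.3, BAX at 53.8 ± 8.40, MDM2 at 28.0 ± 12.6, TP53I3 at 20.1 ± 8.82, RRM2B at 13.0 ± 1.78, ZMAT3 at 5.45 ± 2.02, BBC3 at 3.82 ± 0.362 and SESN1 at 2.64 ± 0.861 CPM per kb. The ranges over the 3 control libraries overlapped between the neighbours CDKN1A and GDF15, MDM2 and TP53I3, TP53I3 and RRM2B, ZMAT3 and BBC3, and BBC3 and SESN1. The order held in 9 of 9 libraries for every pair of neighbours except BAX over MDM2 (7 of 9) and ZMAT3 over BBC3 (8 of 9). The length is that of all annotated exons together, which for FAS comes to 29313 bases, so the value per kb depends on the annotation. All 10 genes were well covered, from BBC3 with 175 to 405 counts per library to CDKN1A with 4786 to 20205.

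**Figure D1:**
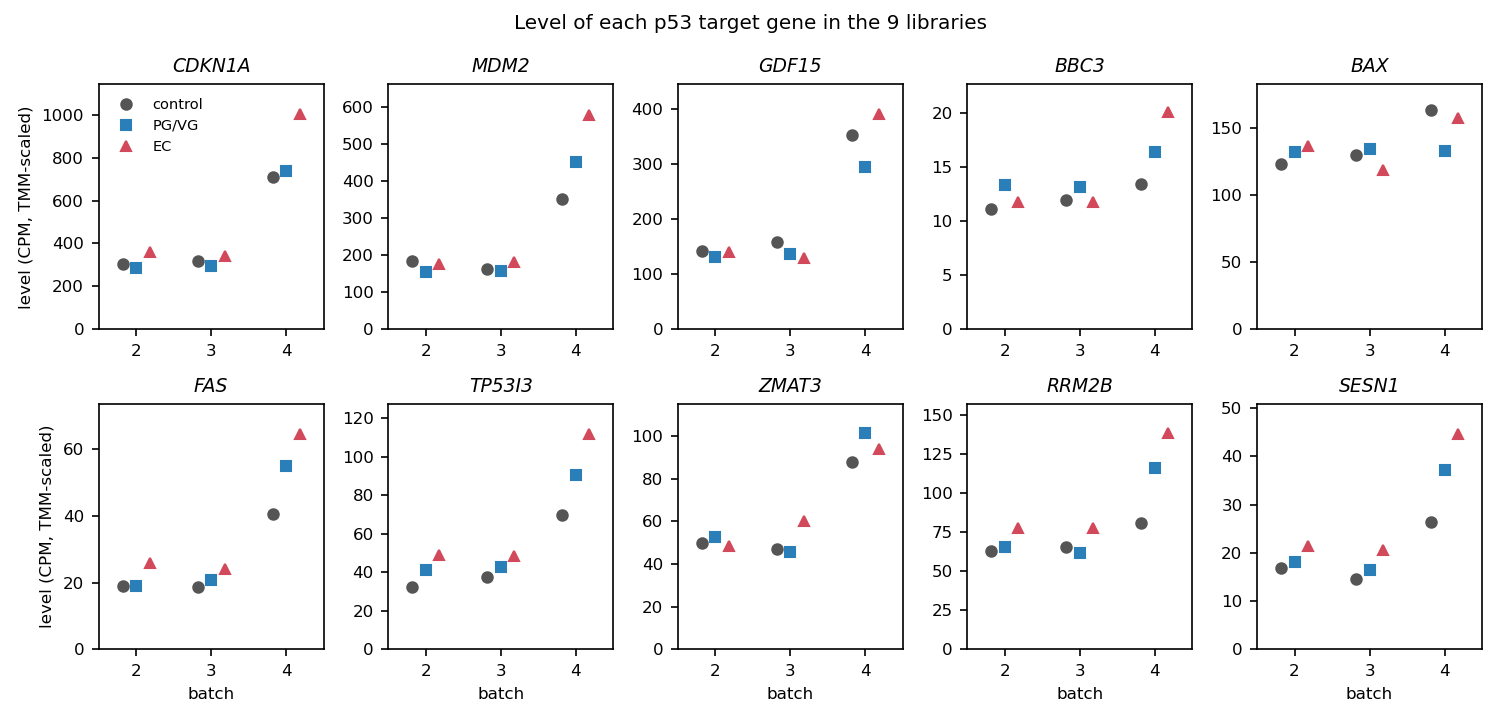
Level of each of the 10 p53 target genes in each library, in CPM with TMM-scaled library sizes on a linear axis that starts at 0, by batch. Circles are control, squares PG/VG and triangles EC. Batch 4 lies above batches 2 and 3 in 9 of the 10 panels, all but BAX.

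In EC vs. control, 5 of the 10 genes rose and none fell (edgeR, Benjamini-Hochberg adjusted p under 0.05). Of all genes tested, 13.5% were called in this comparison with 8.07% higher and 5.38% lower. At an unadjusted p under 0.05 in edgeR, 6 of the 10 were higher and 0 lower, beside 2461 and 1930 of all 16030 genes. In bulk RNA, more cells with a transcript and more transcript per cell cannot be told apart. The 5 genes were CDKN1A, FAS, TP53I3, RRM2B and SESN1. Of the 10 genes, the same 5 were higher in EC than in the control of their own batch in 3 of 3 batches. So were 24.1% of all genes. The calls come from the same libraries with batch in the model, so this order is not separate support for them. The median log2 fold change of the 10 genes was 0.28, beside 0.0078 over all genes tested. With the batches pooled, the EC and control libraries overlapped for every one of the 10 genes, as batch 4 lay high in both, whereas 9.83% of all genes separated with EC higher and 7.42% with EC lower. Without batch 4, an alternative added after the data were seen, 3 of the 10 genes were called, and without EC replicate 4 alone it was also 3. The share of all genes called with libraries left out is not given, here or for the other lists. Whether calls were lost only along with those of all genes cannot be read from such counts.

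TP53I3 encodes an oxidoreductase that resembles quinone reductases. It stood at 32.0, 37.5 and 69.7 CPM in control batches 2, 3 and 4, at 41.4, 42.6 and 90.7 CPM in PG/VG, and at 48.8, 48.5 and 112 CPM in EC. Within each batch the control was lowest and EC highest, while the pooled groups overlapped. EC exceeded control by a log2 fold change of 0.56 (SE 0.078, edgeR adjusted p = 5.87e-05), a 1.47-fold rise with a 95% interval of 1.31 to 1.65. The call remained with each of the 9 libraries left out in turn and in batches 2 and 3 alone, where the log2 fold change was 0.47.

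SESN1 encodes sestrin 1, which lowers the activity of the growth-promoting kinase complex mTORC1. Its levels were 16.8, 14.6 and 26.3 CPM in control, 18.0, 16.5 and 37.1 CPM in PG/VG, and 21.5, 20.6 and 44.7 CPM in EC. The same order of control, PG/VG and EC was seen in every batch. In EC vs. control it rose by 0.55 on the log2 scale (SE 0.098, edgeR adjusted p = 0.000571), a 1.47-fold rise, and the call was kept in all 9 leave-one-out fits and without batch 4 (0.41).

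FAS encodes a death receptor at the cell surface. It was measured at 19.1, 18.6 and 40.5 CPM in control, at 19.0, 20.8 and 55.1 CPM in PG/VG, and at 25.9, 24.1 and 64.6 CPM in EC. EC was highest in each batch, and the PG/VG library of batch 2 lay at the level of its control. EC exceeded control by 0.51 on the log2 scale (SE 0.093, edgeR adjusted p = 0.000783), or 1.42-fold, and this call too was kept in all 9 leave-one-out fits and without batch 4 (0.40). Of the exon length of FAS, 7.04% overlaps other genes. Reads that overlap several genes were left out, and as no strand setting is stated, the reads lost there are not known.

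RRM2B, the p53-inducible small subunit of ribonucleotide reductase, provides nucleotides for DNA repair and for mitochondrial DNA. It had 63.1, 65.6 and 80.9 CPM in control, 65.7, 61.3 and 116 CPM in PG/VG, and 77.9, 77.5 and 139 CPM in EC. The EC libraries of batches 2 and 3 lay above their controls but below the control of batch 4. RRM2B rose by 0.44 on the log2 scale (SE 0.095, edgeR adjusted p = 0.00474), or 1.36-fold. The call was lost without EC replicate 4, where the log2 fold change was 0.35 (edgeR adjusted p = 0.0595), and in batches 2 and 3 alone, where it was 0.26 (edgeR adjusted p = 0.0765).

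CDKN1A encodes p21, the inhibitor of cyclin-dependent kinases through which p53 stops the cell cycle. Its levels were 304, 320.4 and 709 CPM in control, 288, 296 and 739 CPM in PG/VG, and 360.2, 341 and 1002 CPM in EC. EC was highest in each batch, and PG/VG lay below control in batches 2 and 3 and above it in batch 4. CDKN1A rose by 0.28 on the log2 scale (SE 0.073, edgeR adjusted p = 0.0128), or 1.21-fold. Without control replicate 4 it was 0.20 (edgeR adjusted p = 0.124), without EC replicate 4 it was 0.18 (edgeR adjusted p = 0.163), and in batches 2 and 3 alone it was 0.15 (edgeR adjusted p = 0.232), so that this call rests on batch 4.

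MDM2, the ligase that p53 induces and that degrades p53 in return, did not pass the test. It had 183, 162 and 352 CPM in control, 155, 158 and 452 CPM in PG/VG, and 176, 183 and 579.5 CPM in EC. In batch 2 EC lay below control, in batch 3 just above it, and in batch 4 EC was 1.65 times as high as its control. The log2 fold change was 0.28 with a 95% interval of 0.020 to 0.54 (edgeR adjusted p = 0.15). Without control replicate 2 alone it was 0.42 and passed (edgeR adjusted p = 0.00674), as it did without the filter on low counts and by ComBat-Seq with DESeq2, and in batches 2 and 3 alone it was 0.043 (edgeR adjusted p = 0.8). Of its exon length, 14.7% overlaps other genes.

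The members of the cell death machinery did not pass either. BBC3, the BH3-only protein PUMA, had 11.1, 12.0 and 13.4 CPM in control, 13.4, 13.1 and 16.4 CPM in PG/VG, and 11.7, 11.8 and 20.1 CPM in EC. The EC library of batch 4 was the highest, and the other 2 EC libraries lay within the control range. Its log2 fold change in EC vs. control was 0.23 (SE 0.122, edgeR adjusted p = 0.232).

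BAX, which permeabilizes the outer membrane of mitochondria, had 123, 129.9 and 164 CPM in control, 133, 135 and 133 CPM in PG/VG, and 137, 119 and 158 CPM in EC. No group stood above another in all 3 batches. The interval of its log2 fold change in EC vs. control was −0.18 to 0.16 around −0.011 (edgeR adjusted p = 0.949), and the sign was positive when only the library size was used for scaling.

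ZMAT3, a zinc finger protein that binds RNA and regulates splicing, had 49.6, 47.2 and 87.9 CPM in control, 52.5, 45.4 and 102 CPM in PG/VG, and 48.6, 60.3 and 94.1 CPM in EC. The EC library of batch 3 was 1.28 times its control, and in batches 2 and 4 EC and control were nearly level. The log2 fold change was 0.15 (SE 0.09, edgeR adjusted p = 0.318).

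GDF15 encodes a secreted stress-induced cytokine of the TGF-β superfamily and is raised by ATF4 as well as by p53. It had 142, 158 and 353 CPM in control, 132, 136 and 295 CPM in PG/VG, and 141, 129 and 391 CPM in EC. EC was below control in batch 3, level with it in batch 2 and above it in batch 4. The log2 fold change in EC vs. control was −0.048 with an interval of −0.21 to 0.12 (edgeR adjusted p = 0.754), and its sign turned when no TMM factor was applied.

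**Figure D2:**
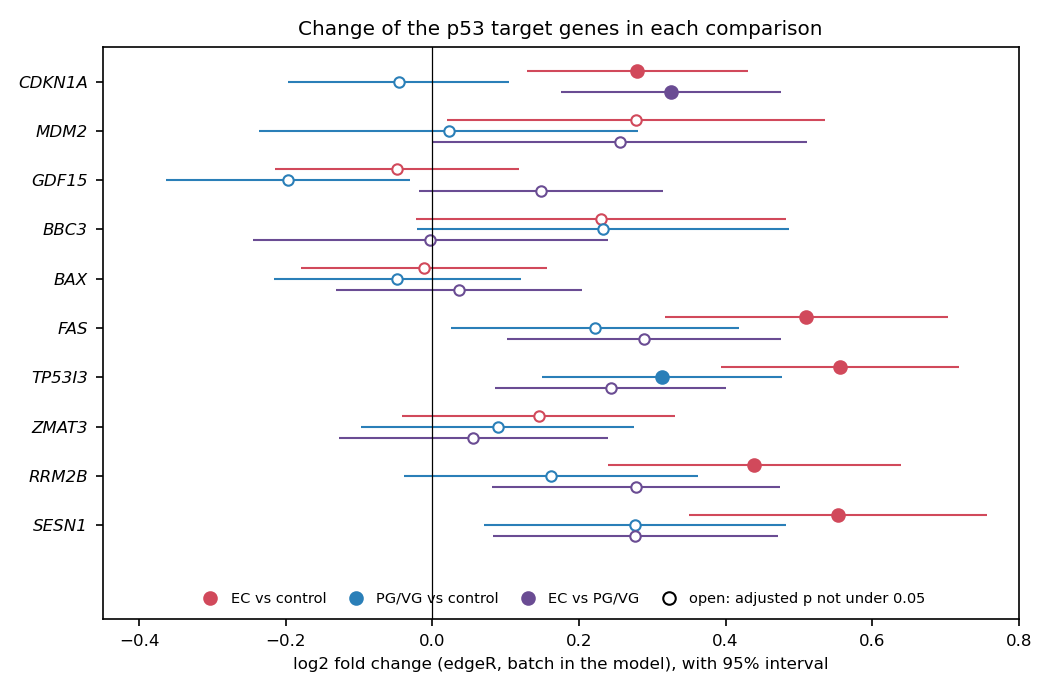
Log2 fold change of each p53 target gene in the 3 treatment comparisons, from the edgeR fit with batch in the model; the lines are 95% intervals. Filled points passed an adjusted p of 0.05. In EC vs. control 5 points are filled, in PG/VG vs. control TP53I3 (0.31) and in EC vs. PG/VG CDKN1A (0.33).

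The carrier condensate alone was compared with untreated cells in PG/VG vs. control. Only TP53I3 was called, with a log2 fold change of 0.31 (SE 0.079, edgeR adjusted p = 0.0231), or 1.24-fold. In this comparison 4.54% of all genes were called, 2.63% higher and 1.9% lower. The call of TP53I3 was lost without control replicate 2 or 4, without PG/VG replicate 2 or 4, and in batches 2 and 3 alone, where the log2 fold change was 0.26 (edgeR adjusted p = 0.17). Of the 10 genes, 3 were higher than their control in 3 of 3 batches, TP53I3, SESN1 and BBC3, as were 23.1% of all genes. SESN1 (0.28, adjusted p = 0.116), BBC3 (0.23, adjusted p = 0.296) and FAS (0.22, adjusted p = 0.187) had positive values in edgeR that did not pass. GDF15 had the lowest value, −0.20 (SE 0.081, edgeR adjusted p = 0.168), and was the member lower than its control in 3 of 3 batches, as were 20.3% of all genes. The values for CDKN1A (−0.046), BAX (−0.048), MDM2 (0.022), ZMAT3 (0.089) and RRM2B (0.16) did not pass, and those of MDM2, BAX and RRM2B changed sign without batch 4. The median over the 10 genes was 0.13, beside 0.013 over all genes.

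The condensate of the flavored nicotine liquid was set against that of the carrier liquid in EC vs. PG/VG. The study states the ratio of propylene glycol to glycerin only for the carrier liquid, so the liquids may differ in more than nicotine and flavor. CDKN1A rose by 0.33 on the log2 scale (SE 0.073, edgeR adjusted p = 0.0314), or 1.25-fold, in 3 of 3 batches, and was 1 of the 0.855% of all genes called and the 0.555% called higher, with 0.299% lower. Its call was lost without any one PG/VG library, without EC replicate 2 or 4, and in batches 2 and 3 alone, where the value was 0.27 (edgeR adjusted p = 0.153). The values of FAS (0.29), RRM2B (0.28), SESN1 (0.28), MDM2 (0.26) and TP53I3 (0.24) did not pass in edgeR, with adjusted p between 0.149 and 0.387. Each of these 5 was nevertheless higher in EC in 3 of 3 batches, so that with CDKN1A 6 of 10 genes showed this order, as did 16.7% of all genes. At an unadjusted p under 0.05 the same number of members, 6, were higher, as were 6.66% of all genes. GDF15 (0.15), ZMAT3 (0.056), BAX (0.037) and BBC3 (−0.0027) made up the rest, and the median over the 10 genes was 0.25, beside 0.0024 over all genes.

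The mean level rose from control over PG/VG to EC in 7 of 10 genes, against 24.2% of all genes, and TP53I3 and SESN1, 2 of 10, kept this order within each batch, against 3.82% of all genes. The 3 comparisons share their libraries, so these orders are not separate observations.

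The largest differences among the libraries of these genes lay between the batches. Between batch 4 and batches 2 and 3, with the groups as a term in the model, all 10 genes were called higher in batch 4 (edgeR), as were 20.1% of all genes. The 9 libraries separated fully for 9 of the 10, all but BAX, while 14.5% of all genes separated with batch 4 higher. The log2 differences were 1.43 for MDM2, 1.35 for CDKN1A, 1.32 for FAS, 1.31 for GDF15, 1.11 for TP53I3, 0.99 for SESN1, 0.90 for ZMAT3, 0.69 for RRM2B, 0.45 for BBC3 and 0.23 for BAX. BBC3 was not called without EC replicate 4, and BAX was not called without control replicate 4 or EC replicate 4. The difference was already present in untreated cells, where the batch 4 control was 2.35 times the mean of the other 2 controls for GDF15, 2.27 times for CDKN1A and 1.16 times for BBC3. Summed over the 10 genes, the level was 1897 to 2604 CPM in batch 4 and 917 to 1048 CPM in batches 2 and 3. What distinguishes batch 4 in culture or handling is not given in the labels, and it has 1 library a group. As 1 batch is set against 2 others, these calls measure the spread of libraries left after batch and group, not that between batches.

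**Figure D3:**
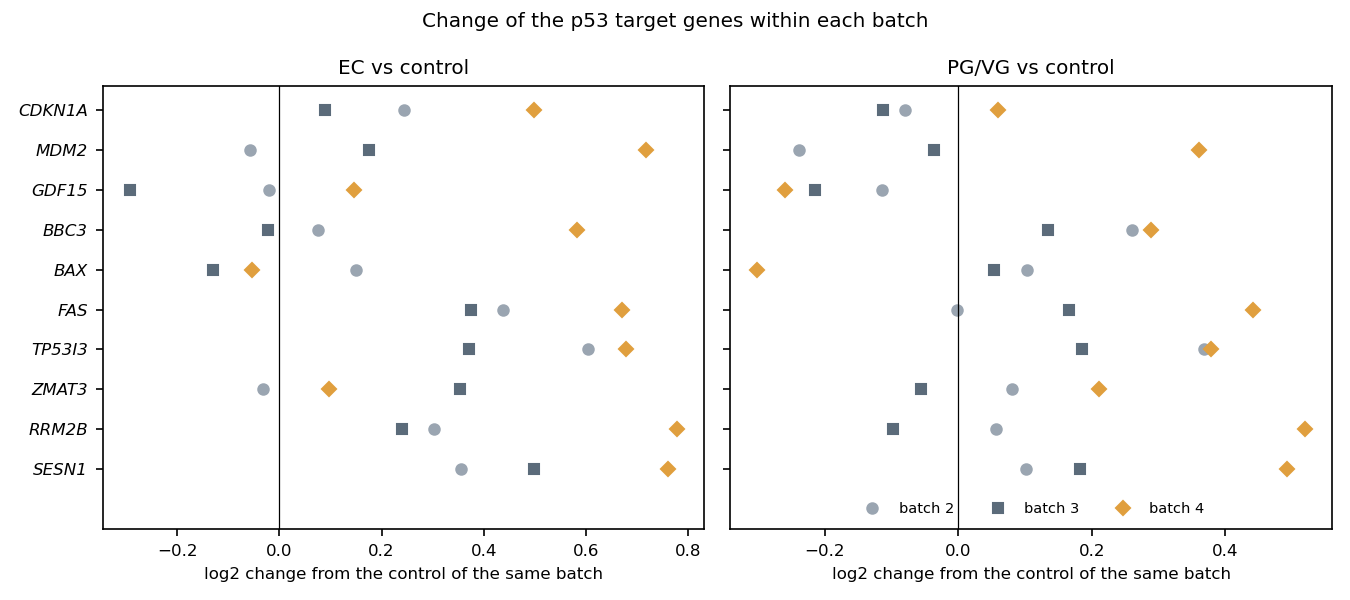
Log2 change of each p53 target gene from the control of the same batch, in EC on the left and in PG/VG on the right. Circles are batch 2, squares batch 3 and diamonds batch 4. In EC, batch 4 gave the highest value in 8 of the 10 genes, all but BAX and ZMAT3. The share of all genes with this order was not counted.

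The change in EC vs. control was also larger in batch 4 for most of these genes. The median over the 10 genes was 0.20 in batch 2, 0.21 in batch 3 and 0.63 in batch 4, where each value rests on 1 library a group. Over all genes tested these medians were −0.0019, 0.015 and 0.0075. The share of all genes with the largest change in batch 4 was not counted. A test of the difference, added after the data were seen, put the excess of batch 4 at 0.66 for MDM2 (SE 0.137, edgeR unadjusted p = 0.000339, adjusted p = 0.233), at 0.56 for BBC3, at 0.51 for RRM2B and at 0.33 for both SESN1 and CDKN1A. None of the 10 passed the adjustment, in which 2 genes of all 16030 passed. At an unadjusted p under 0.05, at which 7.55% of all genes passed, MDM2, RRM2B, BBC3 and CDKN1A passed. For PG/VG vs. control the largest excess was 0.54 for RRM2B (edgeR unadjusted p = 0.00224, adjusted p = 0.628). MDM2 (0.50) and BAX (−0.38) also had an unadjusted p under 0.05, as did 6.5% of all genes, and no gene passed the adjustment.

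Other direct targets of p53 were listed as well, 45 genes of which 44 were tested. In EC vs. control 16 rose and 1 fell (edgeR), where 8.07% of all genes rose and 5.38% fell, and the median log2 fold change was 0.23. Without EC replicate 4 there were 11 calls and without batch 4 there were 10, where the share of all genes called is not given. FUCA1, a lysosomal fucosidase, rose the most among the genes named by rule, from 18.8, 18.6 and 40.2 CPM in control to 39.9, 39.5 and 69.0 CPM in EC, a log2 fold change of 0.97 (SE 0.086, edgeR adjusted p = 2.44e-07). Its PG/VG libraries lay between, at 28.1, 27.1 and 52.6 CPM. BTG2, an anti-proliferative protein, rose by 0.62, and SPATA18, a protein of mitochondrial quality control, by 0.57. The call of BTG2 was lost without EC replicate 2 (edgeR adjusted p = 0.0502) and in batches 2 and 3 alone, where the value was 0.36 (adjusted p = 0.0714), while that of SPATA18 was kept in both. PLK2, a kinase of the polo family, fell by 0.45.

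In PG/VG vs. control 3 of the 44 rose, beside 2.63% of all genes (1 without PG/VG replicate 2 and 7 without EC replicate 2). They were FUCA1 (0.49), the death receptor TNFRSF10A (0.42) and the translesion polymerase POLH (0.32). In EC vs. PG/VG only FUCA1 rose (0.48), beside 0.555% of all genes, with 2 calls without control replicate 4 and 4 without EC replicate 3. The call of TNFRSF10A was lost without control replicate 4 or PG/VG replicate 2 or 3, that of POLH without control replicate 3 or 4 or PG/VG replicate 2 or 4, and both in batches 2 and 3 alone. Of the exon length of TNFRSF10A, 16.7% overlaps other genes. In batch 4 31 of the 44 were higher and 2 lower, beside 20.1% and 20.5% of all genes, with a median of 0.57. A consensus site by the rule above lay near 16 of all 45 (35.6%).

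The regulators of p53 were set beside its targets. MDM4, the partner of MDM2, had −0.18 in EC vs. control (edgeR adjusted p = 0.241) and was lower in batch 4 by 0.26.

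Among 22 regulators tested, 4 fell with EC, beside 5.38% of all genes, and 4 with PG/VG, beside 1.9%, and none rose in edgeR. At an unadjusted p under 0.05, 1 was higher with EC and 3 with PG/VG, beside 2461 and 1749 of all 16030 genes. The regulators that fell included the ribosomal proteins RPL5 (−0.35 in EC, −0.33 in PG/VG) and RPL11 (−0.31 in both), which can bind and inhibit MDM2, and the nucleolar protein NPM1 (−0.32 and −0.37). The study reports that translation genes as a class were lowered by both treatments and names RPL5 among them. A fall of ribosomal proteins is thus not particular to regulators of p53. In batches 2 and 3 alone the call of RPL11 was lost in both comparisons. In EC vs. PG/VG 3 were lower and 0 higher at an unadjusted p under 0.05 in edgeR, beside 997 and 1067 of all 16030 genes. None was called there in edgeR, and DESeq2 and the ComBat-Seq route called none either. The counts did not hold throughout, since without control replicate 4 or EC replicate 4 the number in EC vs. control was 2, and that in PG/VG vs. control was 1 without control replicate 3 or PG/VG replicate 2 and 2 without control replicate 4 or PG/VG replicate 3 or 4.

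p53 lowers genes of mitosis and S phase through p21 and the DREAM repressor complex. Of 28 such genes 5 fell and none rose in EC vs. control, with a median of −0.12 and 26 of 28 values below 0, where 5.38% of all genes fell and 48.5% of all values were below 0. AURKA (−0.35), the mitotic kinase Aurora A, had 198, 182 and 232 CPM in control and 165, 155 and 158 CPM in EC, without overlap of the groups. ECT2 (−0.32), a factor of cytokinesis, and the kinase PLK1 (−0.31) were likewise separated. In EC vs. PG/VG all 28 values were below 0, beside 49.3% of all genes, with a median of −0.15. CENPE (−0.38), a kinetochore motor, and PLK1 (−0.32) fell in edgeR, beside 0.299% of all genes. In batches 2 and 3 alone neither of these 2 calls was kept, nor that of PLK1 in EC vs. control. In PG/VG vs. control 3 were higher and 1 lower at an unadjusted p under 0.05 in edgeR, beside 1749 and 1476 of all 16030 genes. None was called there by edgeR or by DESeq2 with batch, ComBat-Seq with DESeq2 called 2, and the median was 0.012. The number in EC vs. control was 2 without EC replicate 4, 3 without control replicate 4 and 8 without EC replicate 2, and that in EC vs. PG/VG was 0 without PG/VG replicate 2, PG/VG replicate 4 or EC replicate 4 and 1 without PG/VG replicate 3 or EC replicate 2. Of the exon length of PLK1, 12.8% overlaps other genes. In batch 4 4 of the 28 were higher and 6 lower, beside 20.1% and 20.5% of all genes, with values from −0.87 to 0.42 and a median of 0.021.

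**Figure D4:**
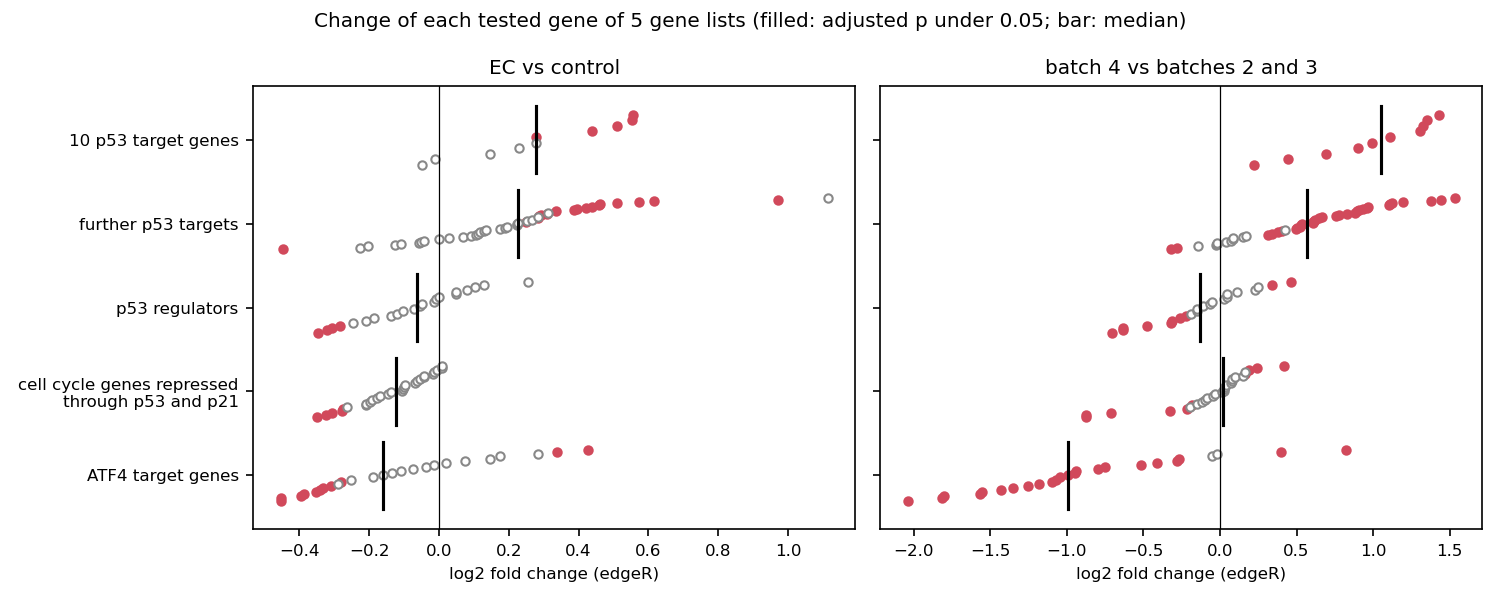
Log2 fold change of every tested gene of 5 lists, in EC vs. control on the left and between batch 4 and batches 2 and 3 on the right, from edgeR. Filled points passed an adjusted p of 0.05 and the bar is the list's median. In EC vs. control the medians of the 10 genes (0.28) and of the further targets (0.23) lie above 0 and those of the other 3 lists below, and in batch 4 the p53 targets are displaced upward and the ATF4 targets downward (−0.99).

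ATF4, the transcription factor of the integrated stress response, shares GDF15 with p53, and its other targets were therefore listed. Of 25 genes 2 rose and 9 fell in EC vs. control, beside 8.07% and 5.38% of all genes, with a median of −0.16. The amino acid transporter SLC7A5 (0.43) and the transcription factor ATF5 (0.34) rose, and PCK2 (−0.45), PSAT1 (−0.45) and GPT2 (−0.39), enzymes of mitochondrial gluconeogenesis, serine synthesis and alanine metabolism, fell. The call of ATF5 was lost without control replicate 2 or 3, without EC replicate 2 or 4, with DESeq2 and in batches 2 and 3 alone, with an adjusted p of up to 0.232 in the leave-one-out fits of edgeR, whereas SLC7A5, PCK2, PSAT1 and GPT2 were called in each of these. In PG/VG vs. control DDIT3 (−0.35) and CEBPB (−0.31), both stress-induced bZIP factors, fell, beside 1.9% of all genes, though not in batches 2 and 3 alone. The count of 2 became 0 without control replicate 3 or PG/VG replicate 2 and 1 without control replicate 2 or PG/VG replicate 4. It became 4 without EC replicate 4 and 5 without EC replicate 2. In EC vs. PG/VG only SLC7A5 (0.33) was called, where 0.555% of all genes were called higher. No gene of the list was called when any one PG/VG library or EC replicate 4 was left out, and 2 were called without EC replicate 3. In batch 4 21 of the 25 were lower and 2 higher than in batches 2 and 3, with a median of −0.99, where 20.5% of all genes were called lower and 20.1% higher. The summed level of the list was 5227 to 5943 CPM in batch 4 against 10067 to 11089 CPM in the other batches. The epithelial markers summed to 1542 to 1825 CPM in batch 4 and 2240 to 3024 CPM elsewhere, with 5 of 8 tested genes lower. The mesenchymal markers summed to 3644 to 5146 CPM in batch 4 and 4697 to 7141 CPM elsewhere, with 5 of 7 tested genes lower. In both lists 0 were called higher, and 20.5% of all genes were called lower. The part of these shifts in the batch difference of the p53 targets was not tested.

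The members' closest relatives were set beside them. Some are less known as p53 targets, and others are p53 targets that other factors also control. The relatives are thus not a list of genes free of p53. SESN2, sestrin 2, had −0.11 in EC vs. control (edgeR adjusted p = 0.371) where SESN1 rose, RRM2, the S phase subunit of ribonucleotide reductase, had 0.0088 (adjusted p = 0.951, of either sign by scaling) where RRM2B rose, and PMAIP1, the BH3-only protein NOXA, had −0.23 (adjusted p = 0.0702). The differences between these relatives and the members were not tested. SESN3, sestrin 3, was called in EC vs. control at very low counts, with 3, 1 and 4 counts in the control libraries and 13, 19 and 43 in EC, and no fold is given for it.

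Of all 33 relatives tested, 4 rose and 3 fell in EC vs. control, beside 8.07% and 5.38% of all genes, with a median of 0.0088. BMF, a BH3-only protein, rose by 1.41 from a low level of 1.05 to 2.59 CPM in control, and TNFRSF10A, which is also in the list of p53 targets, by 0.40. INHBA (−0.60), a subunit of activins, CRYZL1 (−0.39), a quinone oxidoreductase-like protein, and BCL2L2 (−0.30), an anti-apoptotic BCL2 protein, fell. The call of BCL2L2 was lost in 4 of 9 leave-one-out fits, without control replicate 2 or 4 or EC replicate 2 or 3, that of INHBA without control replicate 2 or EC replicate 3, that of CRYZL1 without control replicate 2, and that of TNFRSF10A without control replicate 4 or EC replicate 4. The count of 7 was 3 without control replicate 2 and 4 without EC replicate 3. In PG/VG vs. control 2 rose, among them TNFRSF10A, beside 2.63% of all genes. With control replicate 3 or PG/VG replicate 3 or 4 left out 1 was called, and without PG/VG replicate 2 none was.

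The genes most like each of the 5 members called in EC vs. control were sought among 9687 genes with a mean of at least 10 CPM, by the root mean square difference of the 6 log2 changes from the control of the same batch. For CDKN1A these were ANKRA2 (0.0666), PODXL2 (0.0721) and DHX32 (0.0802), where the median over all genes was 0.297. For FAS they were SLC39A8 (0.0788), SESN1 (0.0854) and ABHD4 (0.0861), and for SESN1 they were TGFA (0.0597), ABHD4 (0.0723) and P4HA1 (0.0731). For TP53I3 they were TRIM62 (0.0502), PLEKHG4 (0.0585) and RELB (0.0588), and for RRM2B they were PANK1 (0.0661), FAM200C (0.0852) and ZNF641 (0.0891). ANKRA2 and ABHD4 were also in the list of further p53 targets. The changes share the control libraries, and these values are descriptions without a test.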

How the data were processed

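RNA from 9 BEAS-2B cultures was sequenced by the authors, trimmed with fastp, aligned with STAR to GRCh38 and counted with featureCounts of Subread 2.0.4 on an Ensembl annotation, leaving out multi-mapping and multi-overlapping reads. The strand setting is not given in the sources used here, so it is not known which reads in overlapping exons were left out. The deposited table gives raw counts, as the authors left them, for 63187 genes, and all 9 columns were used. The library numbers pair the samples by label, since the labels use them as the batch, and same-numbered libraries deviated together from their group means (correlations 0.432 to 0.795 in 9 pairs, against −0.668 to 0.565 in 18 pairs of different numbers).

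A gene was tested if 3 or more libraries had 10 or more counts (16030 genes). Counts were fitted in edgeR 4.0.16 (R 4.3.3) with TMM factors, batch as a block and all 9 libraries, and tested by quasi-likelihood with Benjamini-Hochberg adjustment at 0.05. Standard errors were derived from the log2 fold change and the F statistic (its square root as divisor). The steps were tested on simulated data. Coordinates and exons come from GENCODE v44. Alternatives were no block, other scalings (RLE, library size), other filters, DESeq2 1.42.0, ComBat-Seq (sva 3.50.0) followed by DESeq2 as the study's methods have it, thinned counts, only the 2 groups compared, and each library left out. Batches 2 and 3 alone were added after the data were seen.

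The members and lists were chosen with earlier results of these data known. All members were named in every comparison, with MDM4, PMAIP1, SESN2 and RRM2. From each other list, up to 3 called genes with the largest change in each direction were named, provided that no library of the higher group had under 10 counts. The result of 1 gene that the rule names is left out.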

Additional observations from a re-analysis of the deposited data

How the results depend on the processing

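The values below are numbers of called genes at an edgeR adjusted p of 0.05 unless another tool is named. The share of all genes called may differ between the alternatives and is not given. Whether a list gained or lost calls only along with all genes therefore cannot be read from these counts. Without the replicate block, which leaves the batch difference in the residual, 0 of every list were called in the 3 treatment comparisons, and at an unadjusted p under 0.05 0 of the 10 and 7 further targets were left in EC vs. control. In batches 2 and 3 only, with fewer libraries, EC vs. control gave 3 of the 10 p53 target genes, 10 further targets, 2 regulators and 3 cell cycle genes, PG/VG vs. control gave 0 of the 10 (2 at an unadjusted p under 0.05), 2 regulators, 1 ATF4 target and 0 relatives, and EC vs. PG/VG gave 0 of the 10 (6 unadjusted), 0 cell cycle genes and 0 ATF4 targets. ComBat-Seq with DESeq2 gave 12 cell cycle genes and 11 relatives in EC vs. control, 9 further targets, 2 cell cycle genes, 13 ATF4 targets and 4 relatives in PG/VG vs. control, and 5 of the 10, 7 further targets, 9 cell cycle genes, 7 ATF4 targets and 1 relative in EC vs. PG/VG. Only the 2 groups compared gave 2 of the 10, 10 further targets and 7 ATF4 targets in PG/VG vs. control, and 5 further targets, 1 regulator, 4 cell cycle genes and 1 relative in EC vs. PG/VG. DESeq2 with batch gave 5 ATF4 targets and 1 relative in PG/VG vs. control, and 2 further targets, 5 cell cycle genes and 3 ATF4 targets in EC vs. PG/VG. With library size only, 7 further targets and 1 ATF4 target were called in PG/VG vs. control, and 2 further targets, 0 cell cycle genes and 2 ATF4 targets in EC vs. PG/VG. Without a filter beyond 1 count, 7 further targets and 1 cell cycle gene were called in PG/VG vs. control, and 4 further targets, 2 regulators and 5 cell cycle genes in EC vs. PG/VG. With at least 10 counts in every library, 1 relative was called in PG/VG vs. control and 2 further targets in EC vs. PG/VG, and thinned counts gave 5 further targets in PG/VG vs. control. The cause of the changes under other tools, scalings and filters was not tested.

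Leaving out 1 library at a time gave, in EC vs. control, 3 to 6 of the 10, 11 to 17 further targets, 2 to 6 regulators, 2 to 8 cell cycle genes and 3 to 7 relatives. In PG/VG vs. control it gave 0 to 1 of the 10, 1 (without PG/VG replicate 2) to 7 (without EC replicate 2) further targets, 1 to 6 regulators, 0 to 1 cell cycle genes, 0 to 5 ATF4 targets and 0 to 2 relatives. In EC vs. PG/VG it gave 0 to 2 of the 10, with 2 without control replicate 4, 1 to 4 further targets, with 4 without EC replicate 3, 0 to 1 regulators, 0 to 3 cell cycle genes and 0 to 2 ATF4 targets.

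No named gene past the threshold changed sign under these alternatives. Among values that were not called, log2 fold changes in EC vs. control turned for GDF15 (0.014 without the replicate block, 0.013 with library size only, −0.19 to 0.063 leaving out 1 library), BAX (0.049 with library size only, −0.093 to 0.070) and RRM2 (−0.0039 with RLE and with DESeq2, −0.0027 with ComBat-Seq, −0.029 to 0.036). In PG/VG vs. control they turned for MDM2 (−0.16 in batches 2 and 3 only, −0.17 to 0.17), BAX (0.061 and −0.13 to 0.055), RRM2B (−0.036 and −0.015 to 0.26), SESN2 (0.016 with library size only, 0.0045 without the filter, −0.085 to 0.028), CDKN1A (−0.13 to 0.0078) and ZMAT3 (−0.0050 to 0.20). In EC vs. PG/VG they turned for BBC3 (0.021 without the replicate block, 0.032 with library size only, 0.0071 with at least 10 counts in every library, 0.0072 thinned, −0.19 to 0.088), BAX (−0.063 in batches 2 and 3 only, −0.073 to 0.12), ZMAT3 (−0.081 to 0.14), MDM4 (0.0010 with library size only, −0.16 to 0.11) and PMAIP1 (−0.11 to 0.043).

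With 3 libraries a group, the 95% intervals of the EC to control ratio ran from 1.01 to 1.45 for MDM2 and from 0.984 to 1.40 for BBC3, so a missed threshold does not show that the level was the same.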
